A study of Mus musculus with 69 samples.

Results

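The messages of 45 genes of the autophagy machinery and its cargo receptors were followed in mouse macrophages that had been edited at a gene of the lysosome, the endosome or the cell surface. The 45 were listed by symbol, with earlier results of these data known, and taken from the 56980 genes of the deposited table, and all 45 were among the 12008 genes with enough counts to test. Marrow of wild-type mice was turned into macrophages by culture in 50 ng/mL M-CSF, a growth factor for these cells. The macrophages were collected after 7 days, frozen, later thawed and plated in M-CSF again. They then received Cas9 with a guide RNA as a ribonucleoprotein complex. The targeted groups were Atp6v1a (subunit A of the proton pump that acidifies lysosomes), Npc1 (exporter of cholesterol from lysosomes), Pik3c3 (the class III lipid kinase, itself 1 of the 45 genes), Ctsd (cathepsin D, a protease of the lysosome), Grn (encoding progranulin, a secreted protein that also reaches lysosomes) and Trem2 (a lipid-sensing surface receptor). The control was the Rosa26 group, in which the same complex was aimed at a locus commonly used as a neutral editing site, so the controls also went through freezing, thawing and editing. Each group was collected 4 or 13 days after editing. The sample labels write these numbers as hours and the series design writes them as days, and days are used here. Of the 14 groups, 13 had 5 libraries and Npc1 cells of day 4 had 4 (replicates 2 to 5), 69 in all. Each replicate pooled marrow of 6 mice, and the ages of the mice are not given in the sources used here.

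Autophagy encloses parts of the cytoplasm in a double membrane, the autophagosome, and delivers them to the lysosome for breakdown. A kinase complex built on ULK1 or ULK2 starts the process. The class III PI3-kinase complex (PIK3C3 with PIK3R4, BECN1 and ATG14) marks the site with a phosphoinositide, and another form of it holds UVRAG in place of ATG14. ATG9, the ATG2 proteins and the WIPI proteins bring lipid to the growing membrane, and a pair of ubiquitin-like conjugation systems fixes the ATG8 proteins (the LC3 and GABARAP families) to it. Receptors such as SQSTM1 (p62) hold cargo and ATG8 proteins together, and SNAREs and tethers join the closed vesicle to the lysosome. Several of the receptors are themselves broken down with their cargo, so a level of message is not a level of protein or a rate of autophagy.

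Each library held 2194566 to 4688285 counts of tags from the 3' ends of messages. Levels are given as CPM (counts scaled to the same library total), and changes are log2 fold changes ± SE from 1 edgeR quasi-likelihood fit over all libraries. A change counts as called where its p, adjusted over the 12008 genes by Benjamini-Hochberg, is under 0.05. By their labels 47 libraries followed the Regular and 22 the Low-input protocol, a difference that the fit removes as a term of its own but which the CPM values still contain. Levels said to be rescaled with the protocol difference removed also carry a TMM scaling factor per library, which the CPM values lack. At day 13 the Low-input libraries were 3 in Atp6v1a cells (replicates 1, 2 and 3), 3 in Npc1 cells (2, 3 and 5), 4 in Pik3c3 cells (all but replicate 2), 3 in Ctsd cells (1, 3 and 4), 2 in Grn cells (3 and 4), all 5 in Trem2 cells and 1 in Rosa26 cells (replicate 5). At day 4 the only Low-input library was Trem2 replicate 1. Of the 45 genes, 26 differed between the protocols (16 higher and 10 lower with Low-input), where 67% of all genes tested did (34.9% higher and 32.1% lower). Rb1cc1 and Tax1bp1 had the lowest adjusted p of these, with Low-input minus Regular differences of -1.90 ± 0.07 and -1.10 ± 0.04. The targeted message was lower than in Rosa26 cells in all 12 targeted groups, by -0.44 at the least (Atp6v1a, day 13) and by -2.54 at the most (Grn, day 13).

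The cells carried macrophage messages throughout, with 7910 to 24700 CPM over the macrophage markers. Marker messages of brain, red blood, neutrophil and stromal cells were also present and differed between groups. The brain markers were very uneven in level. Mbp had the highest median of them (84.4 CPM, range 46.6 to 178 CPM), followed by Map2 (17.2 CPM), and Mog was at 0 in 37 libraries. Sums of brain markers are therefore weighted towards Mbp and need not follow the other markers. The 24 brain markers, none of them at 0 in every library, summed to 248 to 394 CPM in Grn cells and 143 to 592 CPM in Trem2 cells of day 4, against 160 to 210 CPM in Rosa26 cells of that day. At day 13 they summed to 115 to 313 CPM in Atp6v1a cells, 121 to 287 CPM in Pik3c3 cells, 117 to 153 CPM in Grn cells and 138 to 213 CPM in Trem2 cells, against 152 to 530 CPM in Rosa26 cells. The neutrophil markers, of which S100a8 alone was above 0 in all 69 libraries, summed to 7.51 to 16 CPM in Atp6v1a, 8.29 to 12.9 CPM in Pik3c3, 4.43 to 8.88 CPM in Grn, 2.42 to 6.15 CPM in Npc1, 3.9 to 8.92 CPM in Ctsd and 0.357 to 2.54 CPM in Trem2 cells of day 13, against 1 to 5.01 CPM in Rosa26 cells. The defining neutrophil gene Ly6g was at 0 in 64 libraries. At day 4 the neutrophil markers summed to 12 to 41.6 CPM over the targeted groups, against 17.9 to 32.9 CPM in Rosa26 cells. Stromal markers summed to at most 65.1 CPM in any targeted group, against 276 CPM in Rosa26 replicate 5 and 87.8 CPM in Rosa26 replicate 2 of day 13. The part of these cells in the results was not tested beyond the fits with brain markers as a covariate and without those 2 libraries. In such bulk libraries fewer cells of a type and less RNA per cell cannot be told apart.

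Calls among the 45 genes came in the targeted groups in which many genes overall were called, Grn and Trem2 cells at day 4 and Atp6v1a, Pik3c3, Grn and Trem2 cells at day 13. At day 4 none was called in Atp6v1a, Npc1, Pik3c3 or Ctsd cells (in Pik3c3 cells Pik3c3 itself was kept apart), where 0.00833%, 0.00833%, 0.175% and 0.125% of all genes were. At an unadjusted p under 0.05 the counts were 3, 0, 3 and 2, and DESeq2 also called none in these comparisons. Grn cells of day 4 had 1 gene higher and 1 lower (8.04% of all genes called, 4.45% higher and 3.6% lower), and Trem2 cells had 7 higher and 2 lower (24.3% called, 11.4% higher and 12.9% lower). At day 13 the counts were 6 higher and 1 lower in Atp6v1a cells (24.4% of all genes called, 12.8% higher and 11.6% lower), 9 higher and 1 lower of 44 in Pik3c3 cells (13.2%, 7.11% and 6.1%), 13 higher and 2 lower in Grn cells (25.2%, 12.5% and 12.7%) and 12 higher with none lower in Trem2 cells (22.2%, 11.3% and 10.9%). None was called in Npc1 cells of day 13, with 4.46% of all genes called, or in Ctsd cells, with 0.2%. At an unadjusted p under 0.05 the counts there were 5 and 3. DESeq2 called 1 gene in Npc1 cells and none in Ctsd cells. The counts under other settings that follow lack the share of all genes called under the same setting, and cannot be read as particular to the autophagy genes. With the level of the 24 brain markers in the model the counts were 11 in Grn and 14 in Trem2 cells of day 4 and 7 in Grn cells of day 13. Within Low-input libraries alone, where Rosa26 cells have 1, they were 3 in Grn, 2 in Pik3c3 and 1 in Trem2 cells of day 13.

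**Figure D1:**
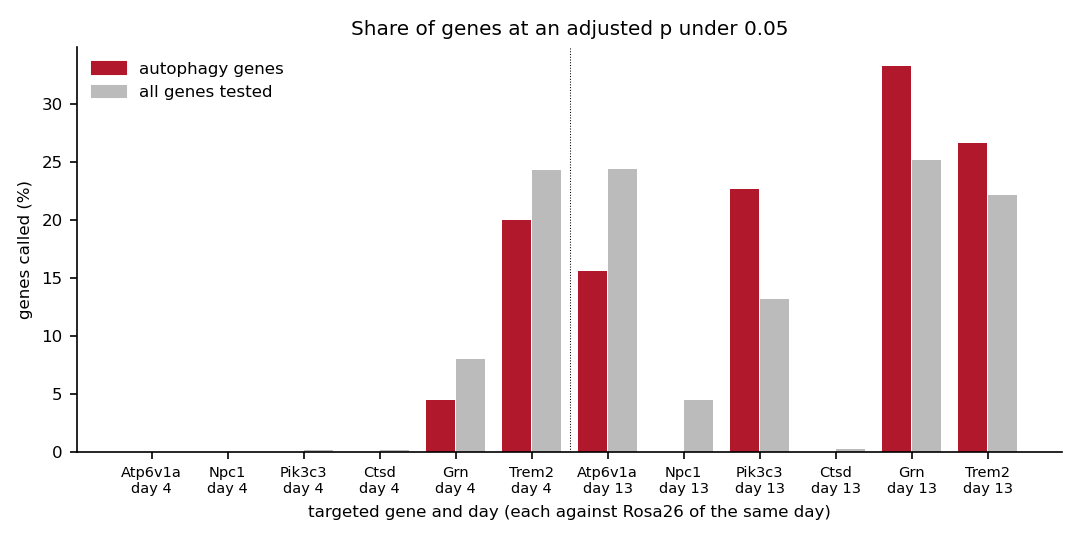
Share of genes called (%, vertical axis) in each targeted group against Rosa26 cells of the same day (horizontal axis), for the autophagy genes (red) and all genes tested (grey). The autophagy genes reached 33.3% in Grn, 26.7% in Trem2 and 22.7% in Pik3c3 cells of day 13, against 25.2%, 22.2% and 13.2% of all genes. They reached 15.6% in Atp6v1a cells of that day, against 24.4% of all genes. In Grn and Trem2 cells of day 4 their share was also below that of all genes.

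Among all genes the calls at day 13 were close to evenly divided between higher and lower, and among the 45 they were mostly higher. The median change of the 45 was 0.15 in Atp6v1a, 0.17 in Grn and 0.13 in Trem2 cells of day 13, and that of the 44 in Pik3c3 cells was 0.12, where the median of all genes lay between -0.02 and 0.03. The changes were small. Of the 28 genes called in at least 1 targeted group, a single one (Optn, in Atp6v1a cells) changed by more than 1 on the log2 scale. The 28 include Pik3c3, which was called only in Pik3c3 cells, where it was the edited gene. The share of all genes called in at least 1 targeted group was not computed. Another 17 were called in none of the 12 targeted groups, 12 were called in 1 group, and 2 (Tecpr1 and Snap29) were called higher in 4 groups. Ulk2 and Sqstm1 were the 2 genes called higher in some groups and lower in others.

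**Figure D2:**
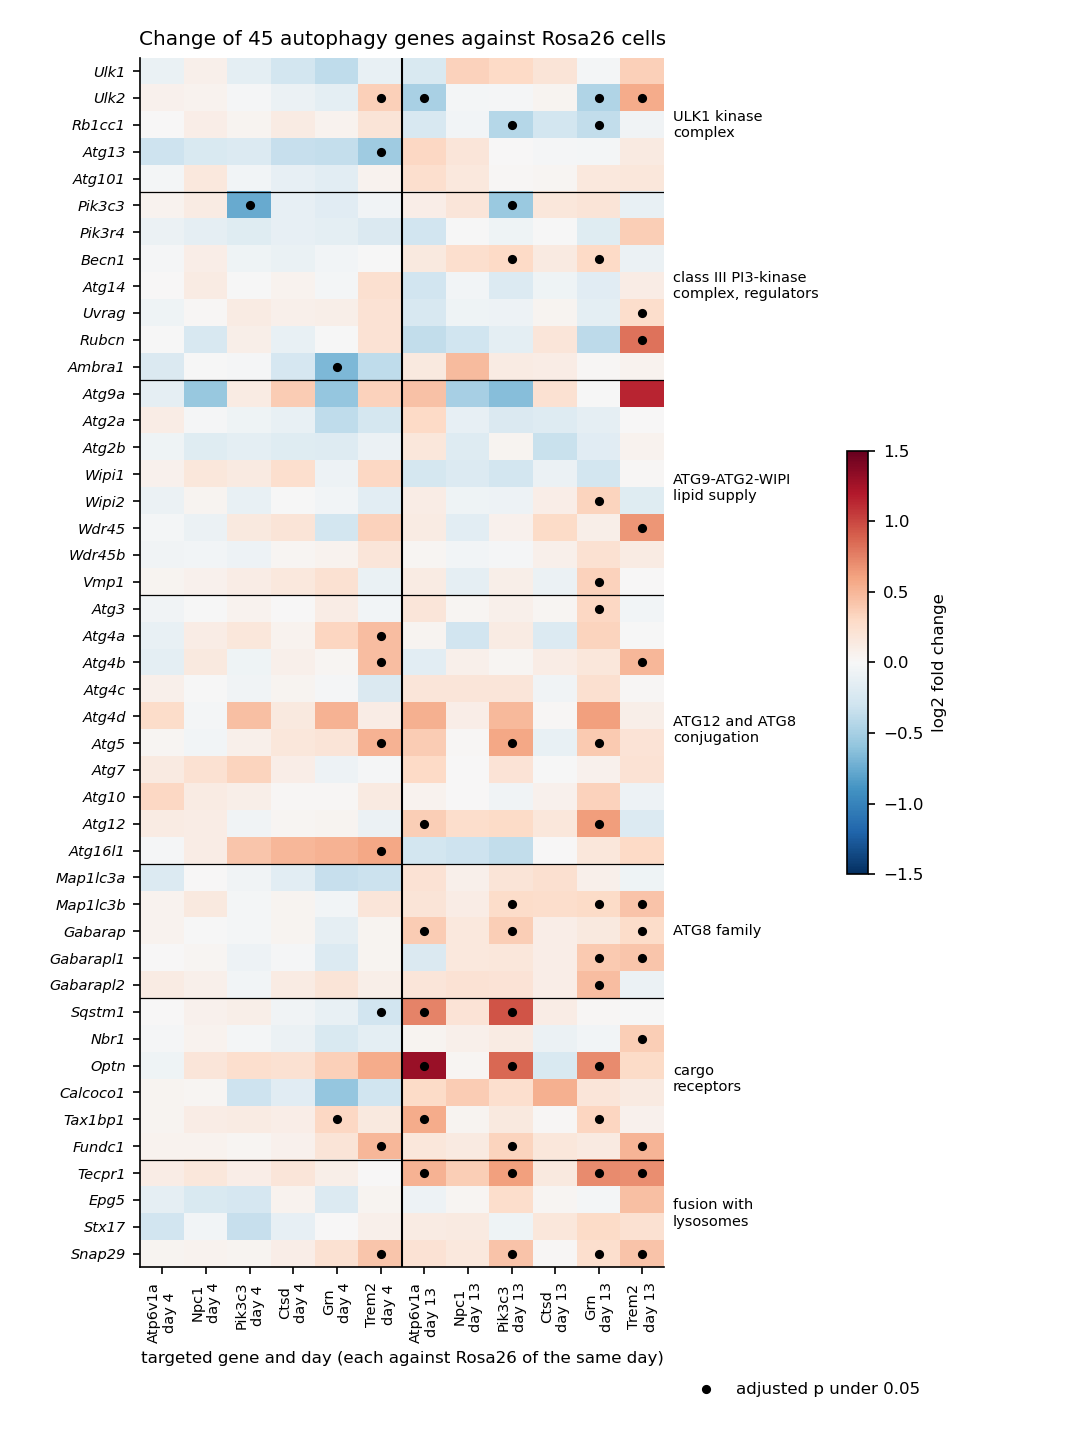
Log2 fold change (colour, red higher and blue lower) of the 45 genes (rows, grouped by role) in each targeted group against Rosa26 cells of the same day (columns, day 4 on the left and day 13 on the right). Black dots mark an adjusted p under 0.05, and most of them lie in the Atp6v1a, Pik3c3, Grn and Trem2 columns of day 13, with a further 9 in the Trem2 column of day 4.

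The promoters of 6 genes that rose in at least 1 group at day 13 are shown, because Tecpr1, Optn and Sqstm1 moved in several groups or by the most, and Atg3, Atg5 and Map1lc3b, among the genes called higher in Grn cells, hold a motif that was searched. Sqstm1 was not called in Grn cells and was added after its values were seen, and the 6 were picked from a larger set. Each sequence covers 250 bases before to 50 bases from the transcription start, read 5′ to 3′ on the gene's strand, from RefSeq's table of promoters on GRCm38.p6 (the counts were made on GRCm39, and these coordinates are not of that build). Capitals mark a motif, the E-box core CACGTG bound by TFEB and its relatives (the transcription factors of lysosomal and autophagy genes) or the antioxidant response core TGACNNNGC bound by NRF2, each searched on both strands. No window shown holds both motifs.
Tecpr1, chr5:144223566-144223865, minus strand: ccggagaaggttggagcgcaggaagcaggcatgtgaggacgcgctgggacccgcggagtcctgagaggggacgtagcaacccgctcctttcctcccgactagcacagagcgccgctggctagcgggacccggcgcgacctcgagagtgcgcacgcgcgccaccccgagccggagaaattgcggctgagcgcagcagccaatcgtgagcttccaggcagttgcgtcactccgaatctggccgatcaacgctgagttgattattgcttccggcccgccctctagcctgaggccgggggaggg
Optn, chr2:5064068-5064367, minus strand: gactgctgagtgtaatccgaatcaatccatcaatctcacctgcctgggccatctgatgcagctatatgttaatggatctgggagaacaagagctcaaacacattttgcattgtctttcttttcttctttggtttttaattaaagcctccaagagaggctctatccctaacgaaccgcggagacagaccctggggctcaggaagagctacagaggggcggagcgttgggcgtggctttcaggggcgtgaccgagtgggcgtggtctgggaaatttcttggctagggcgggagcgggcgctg
Sqstm1, chr11:50210771-50211070, minus strand: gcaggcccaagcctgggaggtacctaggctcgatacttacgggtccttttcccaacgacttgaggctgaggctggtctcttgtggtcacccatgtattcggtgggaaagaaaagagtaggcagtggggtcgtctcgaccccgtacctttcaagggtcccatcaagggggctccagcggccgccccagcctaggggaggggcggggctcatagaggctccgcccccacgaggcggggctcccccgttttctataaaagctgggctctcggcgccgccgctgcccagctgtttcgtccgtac
Atg3, chr16:45158579-45158878, plus strand: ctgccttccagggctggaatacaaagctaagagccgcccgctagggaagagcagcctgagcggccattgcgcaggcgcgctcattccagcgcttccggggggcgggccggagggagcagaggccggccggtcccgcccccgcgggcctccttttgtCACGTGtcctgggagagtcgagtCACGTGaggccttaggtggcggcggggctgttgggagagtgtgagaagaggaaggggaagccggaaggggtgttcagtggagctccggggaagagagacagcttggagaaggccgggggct
Atg5, chr10:44268089-44268388, plus strand: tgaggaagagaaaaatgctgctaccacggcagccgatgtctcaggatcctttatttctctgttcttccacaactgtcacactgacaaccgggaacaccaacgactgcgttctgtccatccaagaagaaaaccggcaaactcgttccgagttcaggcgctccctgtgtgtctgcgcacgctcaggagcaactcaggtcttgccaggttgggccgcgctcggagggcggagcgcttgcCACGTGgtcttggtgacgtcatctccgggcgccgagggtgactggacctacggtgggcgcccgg
Map1lc3b, chr8:121590188-121590487, plus strand: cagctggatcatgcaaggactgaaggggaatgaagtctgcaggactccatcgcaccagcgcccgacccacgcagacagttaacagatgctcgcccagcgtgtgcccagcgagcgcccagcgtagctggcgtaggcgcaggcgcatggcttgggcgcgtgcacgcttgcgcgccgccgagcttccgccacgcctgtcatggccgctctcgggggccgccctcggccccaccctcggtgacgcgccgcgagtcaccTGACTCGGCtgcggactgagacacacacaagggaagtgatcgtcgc

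With positions counted from 1 at the start base, the E-box cores of Atg3 began at -94 and -71 and that of Atg5 at -14, and the antioxidant core of Map1lc3b began at 5. The windows of Tecpr1, Optn and Sqstm1 held neither run of letters. RefSeq's table matched 37 of the 45 genes with 44 windows. The E-box core was in 5 of these windows (11.4%; Atg3, Atg5, Atg7, Atg14 and Rubcn), against 7.15% of all 32851 windows of the table. The antioxidant core was in 7 of them (15.9%; Atg13, Tax1bp1, Map1lc3b, Ulk2 and Vmp1), against 12.4% of all windows.

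Cargo receptors gave the largest changes. Sqstm1 (ENSMUSG00000015837.16), the ubiquitin-binding receptor p62, stood at 947, 1351, 1222, 1344 and 1208 CPM in Atp6v1a cells of day 13 (replicates 1 to 5), against 588, 724, 617, 628 and 739.9 CPM in Rosa26 cells. In Pik3c3 cells it stood at 1284, 1088, 1453, 1615 and 1409 CPM. Every Atp6v1a and every Pik3c3 library was above the highest Rosa26 library. The changes were 0.75 ± 0.09 (adjusted p = 3.68e-10) and 0.94 ± 0.09 (adjusted p = 1.41e-12). Within Regular libraries they were 0.92 in Atp6v1a cells (2 libraries) and 0.77 in Pik3c3 cells (1 library), and within Low-input libraries, with 1 Rosa26 library, 0.65 and 1.03. Both calls held under all 20 other settings tried. The Atp6v1a and Pik3c3 groups also had the highest average of neutrophil markers at day 13 (10.2 and 10.9 CPM, against 2.74 CPM in Rosa26 cells), and the part of neutrophil messages in this result was not tested.

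Sqstm1 was called in no other targeted group of day 13. It averaged 827 ± 137 CPM in Npc1, 773 ± 141 CPM in Ctsd, 666 ± 102 CPM in Grn and 739 ± 60.5 CPM in Trem2 cells, against 659.5 ± 68.1 CPM in Rosa26 cells (SD, n = 5 each). Their changes lay between -0.00 (Trem2) and 0.20 (Npc1), and none was called. At day 4 Sqstm1 was called in Trem2 cells alone and was lower there. Trem2 cells had 564, 538, 542, 600.3 and 669 CPM, against 566, 712, 692, 752 and 726 CPM in Rosa26 cells. These ranges overlapped, since Rosa26 replicate 1 lay within the range of the Trem2 libraries. The change was -0.28 ± 0.09 (adjusted p = 0.0112), and without Trem2 replicate 1, the only Low-input library, it was no longer called (adjusted p = 0.0806). It was not called either with the level of 21 brain markers in the model (-0.17, adjusted p = 0.395).

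Optn (optineurin, a receptor for ubiquitin-coated mitochondria and bacteria) was a message of low level. It stood at 24.1, 24.9, 21.4, 21.4 and 22 CPM in Atp6v1a cells of day 13, against 4.1, 4.76, 13, 13.7 and 9.67 CPM in Rosa26 cells. In Pik3c3 cells it had 16.4, 21, 15.8, 13.7 and 14.1 CPM and in Grn cells 8.29, 16.7, 16.4, 14.8 and 13 CPM. The Atp6v1a libraries were all well above the Rosa26 libraries, the lowest Pik3c3 library (replicate 4) was level with the highest Rosa26 library, and the Grn libraries overlapped the Rosa26 libraries, with Grn replicate 1 low. The Rosa26 libraries varied among themselves, replicates 1 and 2 being the low ones. The rise was 1.30 ± 0.23 in Atp6v1a cells (adjusted p = 8.89e-06), 0.86 ± 0.25 in Pik3c3 cells (adjusted p = 0.0103) and 0.71 ± 0.24 in Grn cells (adjusted p = 0.0214). The Atp6v1a call held under all 20 other settings. The Pik3c3 call was lost without Rosa26 replicate 2 (adjusted p = 0.0645) or Pik3c3 replicate 2 (0.0977), and the Grn call without Rosa26 replicate 1 (0.0771), Rosa26 replicate 2 (0.117) or Grn replicate 2 (0.0743). Without Rosa26 replicates 2 and 5, which were high in stromal markers, both were also lost, at 0.62 (adjusted p = 0.196) and 0.47 (adjusted p = 0.265). Neither was called within a single protocol, at 1.29 and 0.70 in Pik3c3 cells and 0.69 and 0.76 in Grn cells within Regular and Low-input libraries (adjusted p 0.0505 to 0.353).

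Tax1bp1, a receptor that also brings TBK1 to cargo, shows how far the library protocol reaches into the levels. Atp6v1a cells of day 13 had 211, 213, 209, 410.0 and 406 CPM, against 262, 291, 284, 251 and 142 CPM in Rosa26 cells. Read across all libraries the groups overlapped, but within a protocol they did not. The 2 Regular Atp6v1a libraries had 410.0 and 406 CPM, against 251 to 291 CPM in the 4 Regular Rosa26 libraries. The 3 Low-input Atp6v1a libraries had 209 to 213 CPM, against 142 CPM in the only Low-input Rosa26 library. The rise was 0.56 ± 0.07 (adjusted p = 8.81e-09), 0.51 within Regular and 0.57 within Low-input libraries, and 0.14 (adjusted p = 0.704) in a fit with no term for protocol.

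Tax1bp1 also rose in Grn cells on both days. At day 4, where all libraries of both groups were Regular, Grn cells had 288, 295, 297, 291 and 291 CPM, against 209, 263, 252, 237 and 222 CPM in Rosa26 cells, with every Grn library above every Rosa26 library. The change was 0.32 ± 0.07 (adjusted p = 0.00217) at day 4 and 0.32 ± 0.07 (adjusted p = 0.00046) at day 13, when Grn cells had 323, 347, 157, 163 and 332 CPM. The day 4 call was lost with no filter on low counts (adjusted p = 0.198) and without the protocol term (0.32, adjusted p = 0.632), and the day 13 call without the protocol term (0.16, adjusted p = 0.698) and with the 24 brain markers in the model (0.22, adjusted p = 0.106) and within Low-input libraries (0.25, adjusted p = 0.424).

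Fundc1, a mitophagy receptor of the outer mitochondrial membrane, rose in Trem2 cells on both days. It had 147, 113, 108, 122 and 103 CPM in Trem2 cells of day 4, against 70.4, 83.5, 84.3, 90.6 and 83.4 CPM in Rosa26 cells. At day 13 it had 142, 159, 153, 137 and 162 CPM in Trem2 cells, against 87.2, 93.7, 96.9, 87 and 123 CPM in Rosa26 cells. On both days all Trem2 libraries were above all Rosa26 libraries. The changes were 0.49 ± 0.11 (adjusted p = 0.000342) and 0.51 ± 0.12 (adjusted p = 0.00075). Set against the only Low-input Rosa26 library the day 13 change was 0.31 (adjusted p = 0.373) and no longer called, and the day 4 change was 0.82 (adjusted p = 1.7e-06) with the 24 brain markers in the model. In Pik3c3 cells of day 13 Fundc1 had 171, 111, 107, 129.8 and 126 CPM, which overlapped the Rosa26 libraries, and rose by 0.34 ± 0.11 (adjusted p = 0.0381). That call was lost without Pik3c3 replicate 1 (0.188) or Rosa26 replicate 1, 2 or 4 (0.0628 to 0.0738), with either set of brain markers, with no filter, within either protocol or without Rosa26 replicates 2 and 5 (0.0527 to 0.751, with 0.19 within Low-input libraries). Nbr1, a receptor related to SQSTM1, rose in Trem2 cells of day 13 by 0.36 ± 0.12 (adjusted p = 0.0243), with 161, 139, 134, 134 and 125 CPM in Trem2 cells, against 76, 81.3, 99.7, 73.8 and 117 CPM in Rosa26 cells. All Trem2 libraries were above all Rosa26 libraries as measured, and not once levels were rescaled and the protocol difference removed. The Nbr1 call was lost without Rosa26 replicate 2, 4 or 5 or Trem2 replicate 1 (adjusted p 0.0509 to 0.0944), without Rosa26 replicates 2 and 5 together (0.102), with no filter (0.0795) and within Low-input libraries (0.26, adjusted p = 0.382). Calcoco1, a receptor for autophagy of the endoplasmic reticulum, was the only receptor called in no targeted group.

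**Figure D3:**
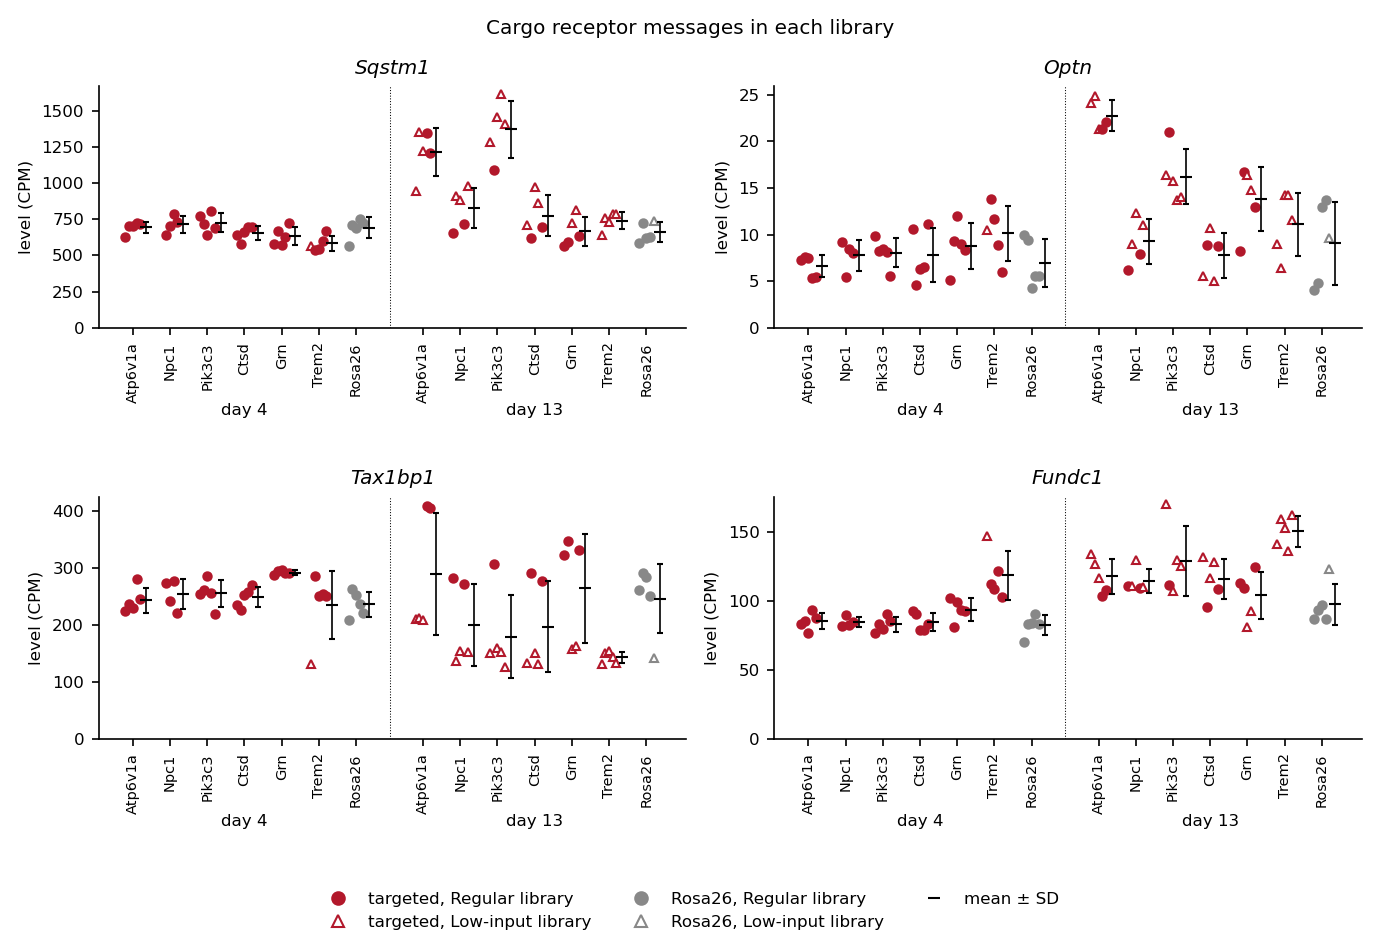
Levels (CPM, vertical axes) of Sqstm1, Optn, Tax1bp1 and Fundc1 in every library, by targeted gene (red) with Rosa26 cells (grey) to the right of the targeted groups of each day. Circles are Regular and open triangles Low-input libraries, and bars give the mean ± SD. Sqstm1 stands apart in Atp6v1a and Pik3c3 cells of day 13, Optn in Atp6v1a cells, and Tax1bp1 divides by protocol.

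All ATG8 genes but Map1lc3a rose in at least 1 of Atp6v1a, Pik3c3, Grn and Trem2 cells of day 13, where 7.11% to 12.8% of all genes were called higher. No ATG8 gene was called in any targeted group of day 4, where 0.00833% to 24.3% of all genes were called. ATG8 proteins are conjugated to lipid on the growing membrane and bind the receptors. Map1lc3b (LC3B) had 758, 763, 746, 765 and 833 CPM in Trem2 cells of day 13, against 413, 396, 364, 354 and 650.2 CPM in Rosa26 cells. All 5 Trem2 libraries lay above the Rosa26 libraries, the highest of which was the Low-input replicate 5. The rise was 0.43 ± 0.10 (adjusted p = 0.000439). Set against that Low-input Rosa26 library alone it was 0.27 (adjusted p = 0.257) and no longer called, the Trem2 group having no Regular library at day 13.

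Map1lc3b was also called higher in Grn cells, with 482, 455, 627, 656 and 485 CPM, and in Pik3c3 cells, with 694, 481, 656, 674 and 703 CPM. Both groups overlapped the Rosa26 libraries until levels were rescaled and the protocol difference removed. The changes were 0.28 ± 0.09 (adjusted p = 0.013) and 0.28 ± 0.09 (adjusted p = 0.0348). In Grn cells the call was lost with brain markers in the model, at 0.16 (adjusted p = 0.39) with 24 markers, and within Low-input libraries, at 0.05 (adjusted p = 0.899). In Pik3c3 cells it was lost without Rosa26 replicate 2, 3 or 4 or Pik3c3 replicate 1, 2 or 5 (adjusted p 0.0505 to 0.0828), with no filter or either set of brain markers (0.0786 to 0.108) and within either protocol, at 0.33 (adjusted p = 0.309) for Regular and 0.14 (adjusted p = 0.739) for Low-input libraries. Ctsd cells of day 13 had 722, 417, 822, 683 and 457 CPM, a change of 0.27 ± 0.09 that was not called (adjusted p = 0.306).

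Gabarap rose in Atp6v1a, Pik3c3 and Trem2 cells of day 13. It had 398, 403, 396, 306 and 292 CPM in Atp6v1a, 423, 277, 324, 397 and 385 CPM in Pik3c3 and 378, 355, 365, 393 and 338 CPM in Trem2 cells, against 192, 221, 233, 204 and 327 CPM in Rosa26 cells. Trem2 cells were wholly above Rosa26 cells, and the other 2 groups were so once levels were rescaled and the protocol difference removed. The changes were 0.38 ± 0.08 (adjusted p = 0.000196), 0.36 ± 0.08 (adjusted p = 0.00103) and 0.28 ± 0.09 (adjusted p = 0.0154). The Trem2 call was lost with no filter on low counts (0.27, adjusted p = 0.191) and within Low-input libraries (0.18, adjusted p = 0.509), and without Rosa26 replicate 2 its adjusted p was 0.05, at the threshold. The Pik3c3 call was lost within Regular (0.38, adjusted p = 0.0888) and within Low-input libraries (0.30, adjusted p = 0.352), and the Atp6v1a call within Low-input libraries (0.28, adjusted p = 0.293).

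Gabarapl1 rose in Grn and Trem2 cells of day 13 and not in Atp6v1a cells. It had 197, 204, 311, 305 and 205 CPM in Grn and 297, 312, 314, 276 and 278 CPM in Trem2 cells, against 187, 171, 162, 169.5 and 214 CPM in Rosa26 cells. The Trem2 libraries were all above the Rosa26 libraries, and the Grn libraries were so within each protocol. The changes were 0.39 ± 0.09 (adjusted p = 0.000655) and 0.41 ± 0.10 (adjusted p = 0.00124). Within Low-input libraries they were 0.60 (adjusted p = 0.0519) and 0.49 (adjusted p = 0.0686), and neither was called. Atp6v1a cells had 194, 174, 199, 153 and 168 CPM, a change of -0.22 ± 0.09 that was not called (adjusted p = 0.0733).

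Gabarapl2 was called higher in Grn cells of day 13 alone, with 412, 334, 299, 330.1 and 354 CPM, against 259, 265, 234, 232 and 306 CPM in Rosa26 cells. The Low-input Rosa26 library (replicate 5) was above 1 of the Grn libraries (replicate 3). The change was 0.46 ± 0.10 (adjusted p = 0.000524), and the call was lost with the brain markers in the model, at 0.11 (adjusted p = 0.603) with 24 and 0.26 (adjusted p = 0.161) with 21, and within Low-input libraries, at 0.12 (adjusted p = 0.803). Map1lc3a (LC3A) averaged between 53.8 ± 13.4 CPM (Grn) and 67.7 ± 20.7 CPM (Ctsd) in the 6 targeted groups of day 13, against 49.5 ± 12 CPM in Rosa26 cells (SD, n = 5 each), and was called in none.

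**Figure D4:**
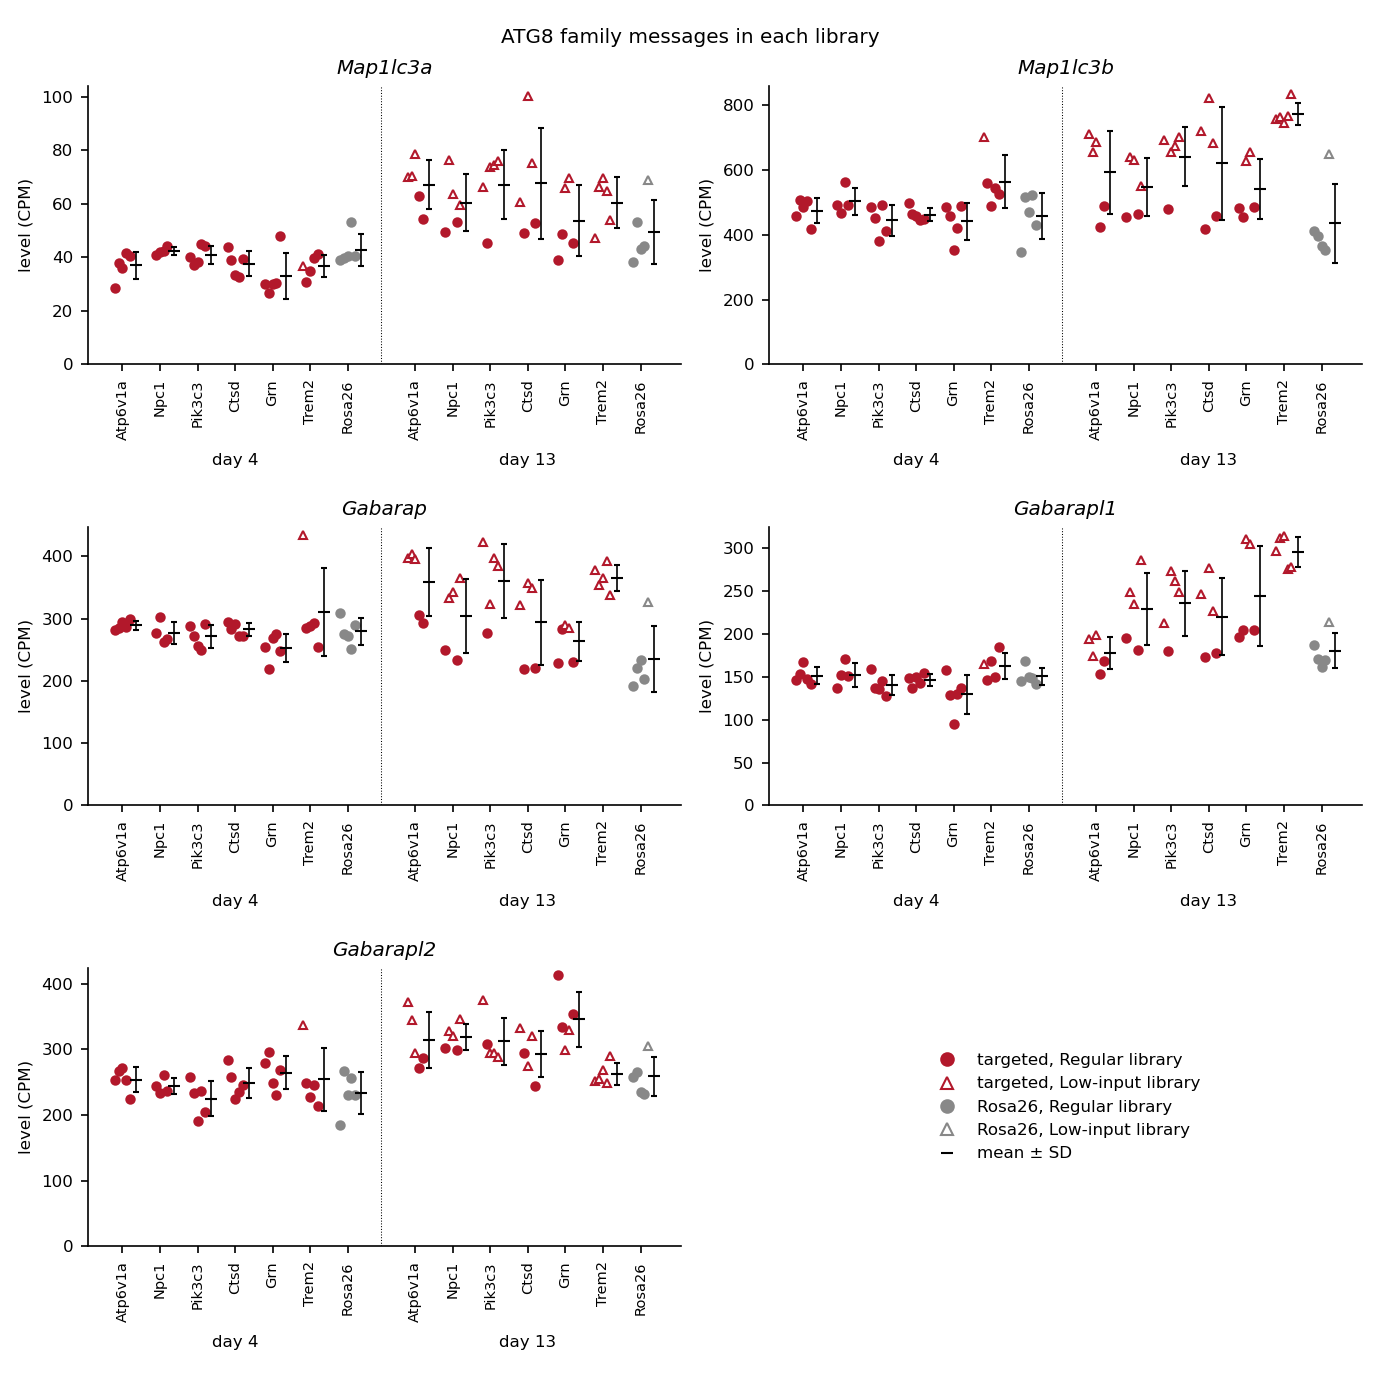
Levels (CPM, vertical axes) of the 5 ATG8 family genes in every library, by targeted gene (red) with Rosa26 cells (grey) to the right of the targeted groups of each day. Circles are Regular and open triangles Low-input libraries, and bars give the mean ± SD. For Map1lc3b and Gabarap the Low-input libraries of day 13 sit above the Regular ones of the same group, and the Trem2 libraries of day 13 are all Low-input.

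Among the 4 genes of fusion with lysosomes, Tecpr1 and Snap29 were called and each in 4 groups, in which 7.11% to 12.8% of all genes were called higher. Tecpr1 (ENSMUSG00000066621.13), a tether between autophagosome and lysosome, had 101, 129, 131, 125 and 135 CPM in Atp6v1a, 109, 107, 148, 148 and 137 CPM in Pik3c3, 82.1, 119, 172, 163 and 111 CPM in Grn and 119, 147, 158, 159 and 127 CPM in Trem2 cells of day 13. Rosa26 cells of that day had 63.4, 81.7, 78.7, 77.9 and 95.7 CPM. All libraries of the Atp6v1a, Pik3c3 and Trem2 groups were above all Rosa26 libraries. In Grn cells replicate 1 lay within them until levels were rescaled and the protocol difference removed. The changes were 0.53 ± 0.13 (adjusted p = 0.00106) in Atp6v1a, 0.62 ± 0.13 (adjusted p = 0.000379) in Pik3c3, 0.71 ± 0.13 (adjusted p = 1.45e-05) in Grn and 0.70 ± 0.14 (adjusted p = 7.97e-05) in Trem2 cells. The Grn call held under all 20 other settings, with 0.56 within Regular and 0.88 within Low-input libraries. The other 3 calls were lost within a single protocol, at 0.32 (adjusted p = 0.471) in Atp6v1a cells within Low-input libraries, at 0.50 (adjusted p = 0.158) within Regular and 0.57 (adjusted p = 0.193) within Low-input libraries in Pik3c3 cells, and at 0.59 (adjusted p = 0.107) in Trem2 cells within Low-input libraries. Npc1 cells had 77.3, 105, 123, 126 and 121 CPM, a change of 0.37 ± 0.13 that did not pass (adjusted p = 0.0831). At day 4 the mean lay between 66.7 ± 13 CPM (Trem2) and 71.6 ± 13.1 CPM (Ctsd) among the targeted groups, against 64.2 ± 5.05 CPM in Rosa26 cells, and Tecpr1 was called in none.

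Snap29, a SNARE of that fusion, rose in Trem2 cells on both days and in Pik3c3 and Grn cells of day 13. Trem2 cells had 75.3, 66.3, 55.4, 68.3 and 68 CPM at day 4, against 51.3, 54, 47.3, 55.1 and 45.9 CPM in Rosa26 cells, and 60.2, 56.8, 53.2, 57.5 and 56.2 CPM at day 13, against 42.9, 43.9, 40, 44.2 and 47.6 CPM in Rosa26 cells. Pik3c3 cells of day 13 had 56.1, 58.9, 51, 59.5 and 55.4 CPM and Grn cells 54.2, 57.1, 43, 44.8 and 49 CPM. All Trem2 and Pik3c3 libraries were above the Rosa26 libraries of their day, and the Grn libraries overlapped them. The changes were 0.41 ± 0.09 (adjusted p = 0.000408) and 0.43 ± 0.10 (adjusted p = 0.00124) in Trem2 cells, 0.42 ± 0.10 (adjusted p = 0.00144) in Pik3c3 cells and 0.25 ± 0.10 (adjusted p = 0.0495) in Grn cells. The Grn call was lost when any of Rosa26 replicates 1 to 4 or Grn replicates 1, 2 or 5 was left out (adjusted p 0.0547 to 0.169), with no filter, no protocol term, DESeq2, DESeq2's size factors or Rosa26 replicates 2 and 5 left out (0.0639 to 0.319), and with brain markers in the model (0.06 (adjusted p = 0.789) with 24). Within Low-input libraries its sign turned (-0.04), and within Regular libraries it was 0.42 (adjusted p = 0.00191). The Trem2 call of day 13 was lost with no filter (adjusted p = 0.0521) and within Low-input libraries (0.28, adjusted p = 0.43), and the Pik3c3 call within Regular (0.46, adjusted p = 0.0695) and within Low-input libraries (0.29, adjusted p = 0.55). Stx17, the partner SNARE on the autophagosome, and Epg5, a tether, were called in no group.

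Of the 10 conjugation genes, 3 rose in Grn cells of day 13 and 4 in Trem2 cells of day 4, where 12.5% and 11.4% of all genes were called higher. Atg12, the ubiquitin-like protein joined to ATG5, had 246, 202, 249, 239 and 233 CPM in Grn cells of day 13, against 168, 159.6, 135, 138 and 177 CPM in Rosa26 cells. In Atp6v1a cells it had 227, 209.9, 218, 204 and 211 CPM. Both groups were above every Rosa26 library. The changes were 0.62 ± 0.10 (adjusted p = 3.47e-06) and 0.37 ± 0.11 (adjusted p = 0.00647). In Grn cells it was 0.70 within Regular and 0.54 (adjusted p = 0.0689) within Low-input libraries, where it was not called, and 0.41 (adjusted p = 0.018) with the 24 brain markers in the model. The Atp6v1a call was lost with the 24 brain markers (0.27, adjusted p = 0.0633), within Regular (0.39, adjusted p = 0.0761) and within Low-input libraries (0.30, adjusted p = 0.306). Trem2 cells of day 13 had 145, 136, 146, 147 and 149 CPM, within the range of Rosa26 cells, and Atg12 was not called there (-0.20 ± 0.11, adjusted p = 0.215).

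Atg4b, a protease that trims ATG8 proteins before conjugation, rose in Trem2 cells on both days. It had 54.4, 41.7, 41.3, 39.1 and 36.2 CPM in Trem2 cells of day 4, against 29.4, 32.9, 25.6, 31.2 and 25.7 CPM in Rosa26 cells. At day 13 it had 60.6, 59.3, 54.3, 44.2 and 49.1 CPM, against 23.5, 33.1, 27.3, 30.5 and 36.9 CPM in Rosa26 cells. The Trem2 libraries were above the Rosa26 libraries on both days. The changes were 0.46 ± 0.11 (adjusted p = 0.000517) and 0.50 ± 0.12 (adjusted p = 0.000666). The day 4 call was lost with 21 brain markers in the model (0.41, adjusted p = 0.0565) and the day 13 call within Low-input libraries (0.55, adjusted p = 0.083).

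Of the other conjugation enzymes, Atg16l1 (which with ATG12-ATG5 forms the ligase for ATG8 proteins) rose in Trem2 cells of day 4 by 0.58 ± 0.18 (adjusted p = 0.0108). Trem2 cells had 18.8, 13.5, 15.5, 10.9 and 10.8 CPM, against 10.6, 6.96, 8.72, 10.1 and 8.42 CPM in Rosa26 cells, without overlap but with a narrow gap, and the call was lost with 21 brain markers in the model (0.46, adjusted p = 0.218) and with no filter (0.54, adjusted p = 0.0801). Atg4a, another ATG8 protease, rose there by 0.47 ± 0.17 (adjusted p = 0.0344), a call lost without Rosa26 replicate 3, 4 or 5 or Trem2 replicate 1 or 4 (adjusted p 0.0622 to 0.117), with no filter (0.125) or with 21 brain markers (0.0563), and moved to 0.82 (adjusted p = 0.00202) with 24. Atg5 rose in Trem2 cells of day 4 (0.52 ± 0.15, adjusted p = 0.00481), in Pik3c3 cells of day 13 (0.58 ± 0.15, adjusted p = 0.00459) and in Grn cells of day 13 (0.39 ± 0.15, adjusted p = 0.0406). Pik3c3 cells of day 13 had 54.7, 49, 42.7, 47.5 and 42.5 CPM of Atg5, all above the Rosa26 libraries at 39.5, 37.3, 35, 31.4 and 26.1 CPM. The Trem2 call was lost with 21 brain markers in the model (0.0549). In Pik3c3 cells the call was lost without Rosa26 replicate 5 (0.0513), without Rosa26 replicates 2 and 5 (0.0905) and within Regular libraries (0.45, adjusted p = 0.313), and was kept within Low-input libraries (0.91, adjusted p = 0.04). The Grn call was lost without Rosa26 replicate 3, 4 or 5 or Grn replicate 1 or 2 (adjusted p 0.0555 to 0.249), with no protocol term, 21 brain markers, Low-input libraries alone or Rosa26 replicates 2 and 5 left out (0.0968 to 0.352), and with 24 brain markers (0.16, adjusted p = 0.64). Atg3, the conjugating enzyme of the ATG8 system, rose in Grn cells of day 13 by 0.31 ± 0.09 (adjusted p = 0.00559). That call was lost with the 24 brain markers in the model (0.21, adjusted p = 0.205), with no filter (0.0705) and within Low-input libraries (0.20, adjusted p = 0.618). Atg4c, Atg4d, Atg7 and Atg10 were called in no group.

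In the complex that starts autophagy the catalytic Ulk2 moved in opposite directions. It had 167, 177, 180.1, 151 and 160.2 CPM in Trem2 cells, 59.4, 80.1, 85.7, 93.7 and 105 CPM in Atp6v1a cells and 69.2, 78.2, 75.1, 80.7 and 98.8 CPM in Grn cells of day 13, against 103, 126, 115, 97.5 and 129.5 CPM in Rosa26 cells. Trem2 cells were wholly above the Rosa26 libraries. Atp6v1a cells were below them only once levels were rescaled and the protocol difference removed, and in Grn cells replicate 5 was within their range. The changes were 0.55 ± 0.12 (adjusted p = 0.000303), -0.49 ± 0.11 (adjusted p = 0.000619) and -0.45 ± 0.11 (adjusted p = 0.00161). At day 4 Trem2 cells had 124, 114, 117, 115 and 137 CPM, against 82.1, 97.1, 94.1, 108 and 93.2 CPM in Rosa26 cells, again without overlap, and the change was 0.36 ± 0.11 (adjusted p = 0.0127). With the 24 brain markers in the model this last call was lost (0.36, adjusted p = 0.0679), as it was with no filter (0.0731). The Trem2 call of day 13 was lost within Low-input libraries (0.39, adjusted p = 0.217), and the Grn call within Regular libraries (-0.33, adjusted p = 0.0642) and without Rosa26 replicates 2 and 5 (-0.35, adjusted p = 0.0607). In Atp6v1a cells the change within Regular libraries, 2 against 4, was -0.23 (adjusted p = 0.32) and no longer called, and that within Low-input libraries was -0.80 (adjusted p = 0.00565).

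Rb1cc1 (FIP200, the scaffold of the complex) fell in Pik3c3 cells (-0.42 ± 0.13, adjusted p = 0.0179) and Grn cells (-0.37 ± 0.12, adjusted p = 0.0133) of day 13. It had 26.9, 82.9, 21.8, 24.9 and 18 CPM in Pik3c3 cells and 94.4, 71.3, 22.6, 21.4 and 84.5 CPM in Grn cells, against 116, 102, 117, 113 and 27.7 CPM in Rosa26 cells. The low libraries of all 3 groups are the Low-input ones, and the difference between protocols (-1.90) was larger than either change. The Pik3c3 call was lost without Pik3c3 replicate 5 (adjusted p = 0.0591) and the Grn call without Grn replicate 2 (0.0595), and both were lost with no filter (0.0979 and 0.0721) and within Low-input libraries (-0.20 (adjusted p = 0.818) in Pik3c3 and -0.25 (adjusted p = 0.693) in Grn cells). The Pik3c3 call was lost within Regular libraries too (-0.44, adjusted p = 0.158), and without the protocol term the changes were -1.49 (adjusted p = 0.00814) in Pik3c3 and -0.64 (adjusted p = 0.287) in Grn cells. In Grn cells it was -0.58 (adjusted p = 0.00507) with the 24 brain markers in the model. Atg13, the regulatory subunit, fell in Trem2 cells of day 4, which had 13.9, 11.8, 12.7, 16.5 and 16.3 CPM, against 20.2, 19, 19.8, 16.1 and 19.9 CPM in Rosa26 cells. Rosa26 replicate 4 lay within the Trem2 range. The change was -0.53 ± 0.14 (adjusted p = 0.00194) and held under all 17 other settings of that comparison, at -0.85 with 24 and -0.80 with 21 brain markers in the model. Ulk1 and Atg101 were called in no targeted group.

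**Figure D5:**
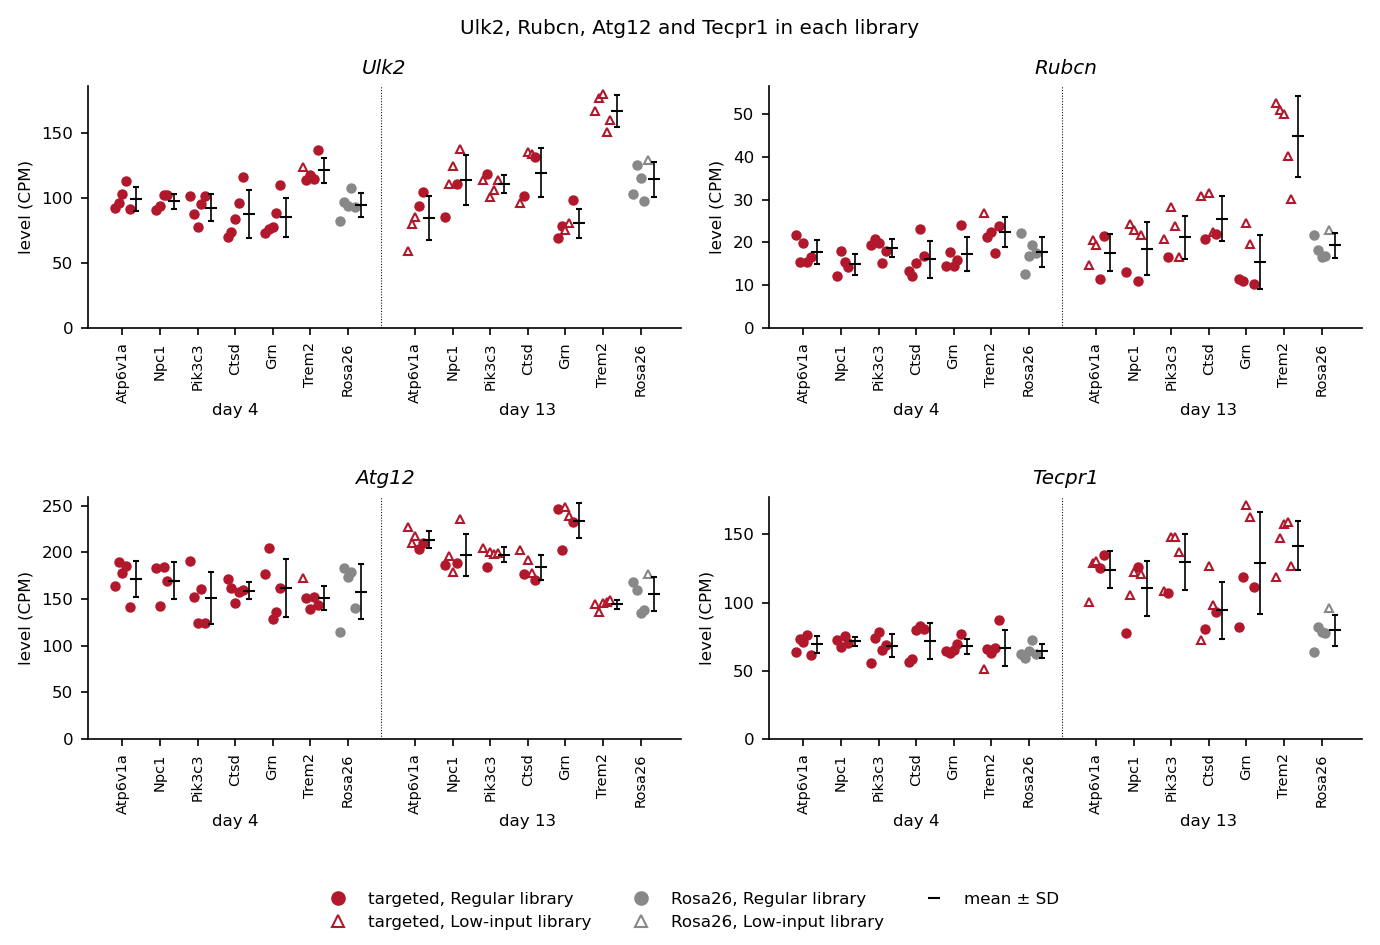
Levels (CPM, vertical axes) of Ulk2, Rubcn, Atg12 and Tecpr1 in every library, by targeted gene (red) with Rosa26 cells (grey) to the right of the targeted groups of each day. Circles are Regular and open triangles Low-input libraries, and bars give the mean ± SD. Trem2 cells of day 13 are highest for Ulk2 and Rubcn, Grn cells for Atg12, and Tecpr1 is above Rosa26 cells in 4 targeted groups of day 13.

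In the class III PI3-kinase complex the targeted kinase gene is read first. Pik3c3 (ENSMUSG00000033628.16) had 56.7, 37, 37.9, 40.5 and 30.5 CPM in Pik3c3 cells of day 4, against 60.1, 74.9, 80.4, 71.9 and 59.9 CPM in Rosa26 cells. At day 13 it had 46.5, 47.1, 46.7, 41.8 and 43.6 CPM, against 62.6, 69.1, 57.1, 50.1 and 67.5 CPM in Rosa26 cells. On both days the Pik3c3 libraries were all below the Rosa26 libraries, by -0.75 ± 0.11 (adjusted p = 1.16e-05) and -0.56 ± 0.11 (adjusted p = 0.00012). Within a single protocol the day 13 change was -0.35 (adjusted p = 0.414) for Regular and -0.52 (adjusted p = 0.11) for Low-input libraries. Tags from the 3' end need not be lost when an edit lies upstream. Outside Pik3c3 cells the gene was called in no targeted group.

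Becn1 (Beclin 1, a scaffold of the complex) rose in Pik3c3 and Grn cells of day 13. It had 142, 138, 156, 152 and 149 CPM in Pik3c3 cells and 121, 122, 176, 151 and 116 CPM in Grn cells, against 99.2, 123, 109, 99.8 and 130.5 CPM in Rosa26 cells. The Pik3c3 libraries were all above the Rosa26 libraries, the Grn libraries only once levels were rescaled and the protocol difference removed. The changes were 0.30 ± 0.09 (adjusted p = 0.0103) and 0.30 ± 0.08 (adjusted p = 0.00405). The Grn call was lost with either set of brain markers in the model (0.28 (adjusted p = 0.0514) with 24 and 0.24 (adjusted p = 0.0792) with 21), and both calls were lost with no filter and within either protocol. With no filter the adjusted p was 0.141 in Pik3c3 and 0.0666 in Grn cells, within Regular libraries 0.222 and 0.0712, and within Low-input libraries 0.479 and 0.184.

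Rubcn (Rubicon), an inhibitor of the UVRAG form of the complex, rose in Trem2 cells of day 13. Trem2 cells had 52.5, 51.1, 50.2, 40.1 and 30.2 CPM, against 21.6, 18.2, 16.7, 16.9 and 23 CPM in Rosa26 cells. There was no overlap as measured and a partial one (Trem2 replicate 5) once levels were rescaled and the protocol difference removed. The change was 0.82 ± 0.18 (adjusted p = 0.000275), and 0.97 (adjusted p = 0.028) within Low-input libraries. The call held under all 19 other settings of that comparison. The other 5 targeted groups of day 13 averaged between 15.4 ± 6.36 CPM (Grn) and 25.5 ± 5.29 CPM (Ctsd), against 19.3 ± 2.88 CPM in Rosa26 cells (SD, n = 5 each), and none was called. Uvrag rose in Trem2 cells by 0.27 ± 0.10 (adjusted p = 0.0431), a call kept in 3 of the 10 fits that left out a library and lost under DESeq2, DESeq2's size factors, no filter, Low-input libraries alone and without Rosa26 replicates 2 and 5 (adjusted p 0.0515 to 0.509).

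Ambra1, a regulator of the complex, fell in Grn cells of day 4, a call that depends on single libraries. Grn cells had 2.97, 12.2, 11.6, 15.1 and 11.6 CPM, against 16.4, 18.5, 19, 14.6 and 18.9 CPM in Rosa26 cells. Grn replicate 1 was the lowest of all, at 7 counts. The change was -0.67 ± 0.20 (adjusted p = 0.0225), and -0.47 without Grn replicate 1 (adjusted p = 0.116). It was also lost without Rosa26 replicate 3 (0.0535), without the protocol term (0.118) and with 21 brain markers in the model (0.0962). Atg14 and Pik3r4 were called in no targeted group.

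Of the 8 genes of lipid supply, 3 were called, each in a single group, 1 in Trem2 and 2 in Grn cells of day 13, where 11.3% and 12.5% of all genes were called higher. Wdr45 (WIPI4, the ATG2 partner whose human gene is mutated in a neurodegenerative disease) rose in Trem2 cells of day 13, with 28.2, 41.4, 32.2, 37 and 24.9 CPM, against 16.4, 13, 12.3, 15.5 and 23.3 CPM in Rosa26 cells. The Trem2 libraries were all above the Rosa26 libraries, and the change was 0.66 ± 0.17 (adjusted p = 0.00255). Within Low-input libraries it was 0.51 (adjusted p = 0.285) and not called. Vmp1, a lipid scramblase of the endoplasmic reticulum, rose in Grn cells of day 13 by 0.35 ± 0.12 (adjusted p = 0.0228), a call lost without Rosa26 replicate 2 (0.0915) or Grn replicate 1 (0.119), without Rosa26 replicates 2 and 5 (0.229), within Low-input libraries (0.21, adjusted p = 0.683) and with brain markers in the model (0.14 (adjusted p = 0.59) with 24). Wipi2, the effector that recruits ATG16L1, rose there by 0.33 ± 0.12 (adjusted p = 0.0386). The change was 0.08 (adjusted p = 0.72) within Regular and 0.77 (adjusted p = 0.0502) within Low-input libraries, and 0.52 (adjusted p = 0.00872) with the 24 brain markers in the model. The call was lost without Rosa26 replicate 2, 3 or 5 or Grn replicate 3 or 4 (adjusted p 0.0595 to 0.223), without Rosa26 replicates 2 and 5 (0.225) and with no filter (0.133). Atg9a, the transmembrane carrier of lipid vesicles, had 0 to 25.1 counts per library and was called nowhere. Atg2a, Atg2b, Wipi1 and Wdr45b were called in no targeted group either.

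Whether an effect differed between the days was tested as the effect at day 13 minus that at day 4. It differed for 6 genes in Atp6v1a cells, 4 in Pik3c3 cells, 4 in Grn cells, and 3 genes in Trem2 cells (11.4%, 6.19%, 10.3% and 7.95% of all genes), and for none in Npc1 or Ctsd cells (0.2% and 0.00833%; 1 and 4 at an unadjusted p under 0.05). In Atp6v1a cells the differences were 0.74 ± 0.12 for Sqstm1 (adjusted p = 8.92e-06), 0.52 ± 0.10 for Tax1bp1 (adjusted p = 0.000178) and 1.37 ± 0.36 for Optn (adjusted p = 0.00523). Without the protocol term that of Tax1bp1 was 0.10 (adjusted p = 0.9). In Pik3c3 cells Sqstm1 led again, with 0.85 ± 0.13 (adjusted p = 1.22e-06). In Grn cells Gabarapl1 led, with 0.60 ± 0.13 (adjusted p = 0.000744), and in Trem2 cells Tecpr1, with 0.68 ± 0.19 (adjusted p = 0.0134), which was 1.13 (adjusted p = 0.000258) with the 24 brain markers in the model.

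Direct comparisons between targeted groups show where their changes differed, since each shares the Rosa26 libraries in the tests above. Atp6v1a cells of day 13 differed from Grn cells in 9 of the 45 genes, 5 higher and 4 lower (19.7% of all genes, 10% higher and 9.68% lower). Sqstm1 was higher by 0.73 ± 0.09 (adjusted p = 7.67e-10) and Gabarapl1 lower by -0.61 ± 0.09 (adjusted p = 1.93e-07) in Atp6v1a cells. Against Pik3c3 cells, Atp6v1a cells differed in 5 of 44 genes, 2 higher and 3 lower (18.5% of all genes, 9.31% higher and 9.19% lower). Tax1bp1 was higher by 0.42 ± 0.07 (adjusted p = 9.07e-06), and Gabarapl1 and Ulk2 were lower by -0.39 ± 0.09 (adjusted p = 0.000774) and -0.46 ± 0.11 (adjusted p = 0.00125). At day 4 Grn cells had 4 genes lower than Trem2 cells and none higher (15.2% of all genes, 9.06% higher and 6.18% lower), namely Ulk2 (-0.50 ± 0.11), Atg4b (-0.43 ± 0.11), Wdr45 (-0.61 ± 0.16) and Wipi1 (-0.39 ± 0.13). Without the protocol term the calls of Wipi1 (adjusted p = 0.196) and of Tax1bp1 between Atp6v1a and Pik3c3 cells (0.63, adjusted p = 0.0813) were lost.

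The same genes were read in Rosa26 cells between the days. Against day 4, Rosa26 cells of day 13 had 5 of the 45 genes higher and 3 lower (30.6% of all genes called, 15% higher and 15.6% lower). Atg101 of the ULK1 complex had 36.9, 45.8, 40.8, 40.5 and 43.7 CPM at day 13, against 46.1, 61.8, 62.7, 57.4 and 50.2 CPM at day 4, without overlap, and fell by -0.42 ± 0.11 (adjusted p = 0.00239). Gabarap fell by -0.33 ± 0.08 (adjusted p = 0.00107) and Atg13 by -0.43 ± 0.14 (adjusted p = 0.0102). Atg16l1 had 16, 11.7, 12.8, 13.7 and 18 CPM at day 13, against 10.6, 6.96, 8.72, 10.1 and 8.42 CPM at day 4, also without overlap, and rose by 0.65 ± 0.18 (adjusted p = 0.00325). Atg14 (0.45 ± 0.13), Tax1bp1 (0.26 ± 0.07), Ulk2 (0.31 ± 0.11) and Rb1cc1 (0.31 ± 0.11) rose as well. Without the protocol term, Atg14, Tax1bp1, Ulk2, Rb1cc1, Atg13 and Gabarap were not called (adjusted p 0.0798 to 0.905), and with no filter Atg14, Tax1bp1, Ulk2, Rb1cc1 and Atg13 were not (0.0604 to 0.365). With the 24 brain markers in the model Atg14 (0.26, adjusted p = 0.231), Gabarap (-0.24, adjusted p = 0.0661) and Ulk2 (0.31, adjusted p = 0.0944) were not called, and with 21 Atg14 (0.29, adjusted p = 0.231) and Atg16l1 (0.55, adjusted p = 0.076) were not. Atg13 moved to -0.71 and Rb1cc1 to 0.50 with the 24 markers, and both remained called. The Ulk2 call was lost without any of Rosa26 replicates 1, 2 or 5 of day 4 or 2, 3 or 5 of day 13, and the Rb1cc1 call without 2, 4 or 5 of day 4 or 1, 3 or 4 of day 13 (adjusted p 0.0503 to 0.101). The Atg13 call was lost without Rosa26 replicate 5 of day 13 (0.0578).

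A wider list of 58 other autophagy genes, of which 55 were tested, was read beside the 45. Up to 3 called genes in each direction were to be named by adjusted p, and the values of the same genes in other groups were added after they were seen. At day 13 it had 7 higher and 5 lower in Atp6v1a, 1 higher in Npc1, 5 higher in Pik3c3, none in Ctsd, 11 higher and 3 lower in Grn and 13 higher and 3 lower in Trem2 cells. Its share called was 21.8% in Atp6v1a, 9.09% in Pik3c3, 25.5% in Grn and 29.1% in Trem2 cells, against 24.4%, 13.2%, 25.2% and 22.2% of all genes, below that of all genes in Atp6v1a and Pik3c3 cells, level with it in Grn cells and above it in Trem2 cells. The lipid scramblase Tmem41b, the ULK1-regulating C9orf72 and the ER-phagy receptor Rtn3 rose in Atp6v1a cells (0.85 ± 0.11, 0.80 ± 0.11 and 0.48 ± 0.08), in Pik3c3 cells (0.47 ± 0.12, 0.68 ± 0.12 and 0.37 ± 0.08) and in Grn cells (0.68 ± 0.11, 0.67 ± 0.11 and 0.27 ± 0.07). In Grn cells the SNARE Ykt6 (0.55 ± 0.08, adjusted p = 9.49e-08) and the late endosomal GTPase Rab7 (0.38 ± 0.06, adjusted p = 9.21e-07) led the list. The ferritin receptor Ncoa4, which led the list in Trem2 cells, rose in Trem2 cells (0.87 ± 0.10, adjusted p = 6.72e-11) and in Pik3c3 cells (0.39 ± 0.09, adjusted p = 0.00163), and fell in Atp6v1a cells (-0.47 ± 0.09, adjusted p = 5.35e-05). The mitophagy kinase Pink1 and the aggregate scaffold Wdfy3 fell in Atp6v1a cells (-0.41 ± 0.13 and -0.58 ± 0.16) and in Grn cells (-0.37 ± 0.13 and -0.81 ± 0.16) and rose in Trem2 cells (0.55 ± 0.13 and 0.65 ± 0.17). Trem2 cells also had higher Sh3glb1 (0.47 ± 0.09, adjusted p = 1.53e-05) and Plekhm1 (0.57 ± 0.13, adjusted p = 0.000753) and lower Ykt6, Smcr8 and Vps18 (-0.28 ± 0.09, -0.47 ± 0.15 and -0.49 ± 0.18). In the order named, their Low-input minus Regular differences were -0.53, 0.32, 0.47, 0.56 and -0.34. All Trem2 libraries of day 13 were Low-input, so these changes depend on the protocol term. The wider genes were not fitted within a single protocol. In Ctsd cells 3 genes of the list had an unadjusted p under 0.05 and DESeq2 called 0. In Npc1 cells the kinase Ulk3 rose by 0.76 ± 0.21 (adjusted p = 0.0175).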

How the data were processed

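Per the labels' protocols the authors made QuantSeq 3' tag libraries with unique molecular identifiers, which were used to remove PCR duplicates, and sequenced 75 bp single-end reads. Estimated counts, as deposited by the authors, came from Salmon with GRCm39, names taken from the submitters' processing notes with no version. A deposited table of log2 CPM made by the authors was not used. Of the estimated counts above 0, 31.2% are not whole, and all were rounded for the tests.

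CPM is a gene's estimated count over the library total, scaled. The 12008 genes that passed edgeR's filterByExpr entered 1 quasi-likelihood fit over all 69 libraries (edgeR 4.0.16 in R 4.3.3, TMM scaling, a mean per group and a term for protocol). Tests were two-sided. Each SE was taken as the absolute change over the root of its F statistic. Where levels are said to have the protocol difference removed, limma 3.58.1 removed it from TMM-scaled log2 CPM (prior count 1). These levels therefore differ from the CPM values shown in scaling as well as in protocol. DESeq2 1.42.0, other scaling, no filter, single protocols, brain markers as a covariate, a replicate block and each library left out were alternatives. The fit was tested on simulated counts with planted changes of at least 1 on the log2 scale. Nearly all changes reported here are smaller, so that test does not speak to changes of their size. Library totals of 2194566 to 4688285 limit the precision of genes with few counts. No 2 libraries of 1 group were as close as counting noise alone would make them (chi-square per degree of freedom 1.701 to 66.736).

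The 45 genes, the wider list, the marker lists and the tests were chosen with earlier results of these data known. The rule for values in every library was the 3 called genes of lowest adjusted p per comparison, the ATG8 family and Sqstm1; further genes were shown after their values were seen. Same-numbered libraries of a target and Rosa26 were compared as unpaired.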

Additional observations from a re-analysis of the deposited data

Results flagged for a closer look

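In 13 of 224 sets, each 1 gene in 1 group of 4 or 5 libraries, a single library stood apart from the rest of its group. The scale was log2 CPM with the protocol difference removed. The genes were those that the rule for values in every library picked, so the sets share the same libraries. Chance gives about 1 in 20. Ambra1 was low in Grn replicate 1 of day 4, at 1.5 where the others had 3.3 to 3.68, and high in Atp6v1a replicate 5 of day 13 (4.11, others 3.38 to 3.59) and Atp6v1a replicate 2 of day 4 (3.97, others 3.52 to 3.61). Ulk2 was high in Grn replicate 5 of day 13 (6.69, others 6.25 to 6.36). Rubcn was low in Ctsd replicate 4 of day 13 (4.2, others 4.65 to 4.73). Atg4b was high in Npc1 replicate 5 of day 13 (5.39, others 5.03 to 5.06), and Atg12 in Pik3c3 replicate 1 of day 13 (7.66, others 7.6 to 7.61). Tax1bp1 was low in Pik3c3 replicate 5 of day 13 (7.53, others 7.77 to 7.84). Gabarap was high in Atp6v1a replicate 5 of day 4 (8.46, others 8.35 to 8.38), and Snap29 in Ctsd replicate 5 of day 4 (5.78, others 5.68 to 5.7). In Rosa26 cells, Map1lc3a was high in replicate 4 of day 4 (5.92, others 5.5 to 5.56), Gabarapl1 was high in replicate 2 of day 4 (7.54, others 7.32 to 7.36), and Tecpr1 was low in replicate 1 of day 13 (6.13, others 6.4 to 6.44).

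The effect against Rosa26 cells differed between day 13 and day 4 for 17 pairs of gene and target (edgeR quasi-likelihood test of the difference). In Atp6v1a cells the day 13 effect minus the day 4 effect was 0.74 for Sqstm1, 0.52 for Tax1bp1, 1.37 for Optn, 0.62 for Atg13, 0.33 for Gabarap and -0.55 for Ulk2 (adjusted p 8.92e-06 to 0.0438). Atg13 itself was called against Rosa26 cells on neither day there (0.316 at day 13 and -0.307 at day 4). Without the protocol term Tax1bp1 was 0.10 (adjusted p = 0.9) and Gabarap 0.49 (0.0525), and with the 24 brain markers in the model Gabarap was 0.30 (0.0765). In Pik3c3 cells it was 0.85 for Sqstm1, 0.39 for Gabarap, 0.36 for Becn1 and -0.78 for Atg16l1 (adjusted p 1.22e-06 to 0.0497). Atg16l1 itself was called against Rosa26 cells on neither day there (-0.366 at day 13 and 0.413 at day 4). With the 24 brain markers Gabarap, Becn1 and Atg16l1 were no longer called (0.0538 to 0.0635), and the Becn1 call was also lost with DESeq2's size factors (0.0707) and the Atg16l1 call without the protocol term (0.0958). In Grn cells it was 0.6 for Gabarapl1, 0.58 for Atg12, 0.62 for Tecpr1 and 0.34 for Becn1 (adjusted p 0.000744 to 0.0467). With brain markers in the model Atg12 was 0.19 (adjusted p = 0.602 with 24 and 0.686 with 21), Tecpr1 was 1.16 (0.000709 with 24), and Becn1 was no longer called (0.24 with 24 and 0.519 with 21), as it was not without the protocol term (0.0588) or with DESeq2's size factors (0.0804). In Trem2 cells it was 0.68 for Tecpr1, 0.66 for Atg13 and 0.51 for Nbr1 (adjusted p 0.0134 to 0.0396). With the 24 brain markers Tecpr1 was 1.13 and Atg13 1.06, and the Nbr1 call was lost with 21 markers (0.102) or DESeq2's size factors (0.0692). Nearly all day 4 libraries were Regular and many of day 13 were Low-input, and the part of protocol beyond its term in the fit was not tested.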

How the results depend on the processing

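The share of all genes called under each setting is not given here, so a moved count need not be particular to the autophagy genes. Counts of autophagy genes called are given for each setting that moved them by over 1.5 times. Without a term for protocol they were 19 in Trem2 cells of day 13, 1 in Npc1 cells of day 13, 0 in Grn cells of day 4, 2 for Atp6v1a against Grn cells, 2 for Atp6v1a against Pik3c3 cells, 2 between the days in Rosa26 cells and 6 for the day difference in Trem2 cells. Within Low-input libraries alone, with 1 Rosa26 library assumed to vary like the other groups, they were 3 in Grn, 2 in Pik3c3 and 1 in Trem2 cells of day 13. Within Regular libraries alone Pik3c3 cells had 1, and Trem2 cells of day 13 gave no value because they have none. With the 24 brain markers as a covariate they were 7 in Grn cells of day 13, 11 in Grn cells of day 4, 14 in Trem2 cells of day 4, 1 in Npc1 cells of day 13 and 8 for the day difference in Trem2 cells. With 21 markers, chosen after seeing the data and not listed here, they were 5 in Trem2 cells of day 4 and 2 for the day difference in Grn and in Pik3c3 cells. With no filter on low counts they were 1 in Npc1 and 6 in Pik3c3 cells of day 13 and 3 between the days in Rosa26 cells, and DESeq2 called 1 in Npc1 cells of day 13. Same-number correlations with Rosa26 libraries ran from -0.098 to 0.359, and no target met the rule set for pairing on either day. The same-numbered Rosa26 library was still the best match in 4 of 5 pairs in Atp6v1a cells of both days and Trem2 cells of day 13. It was so in 1 of 5 pairs in Pik3c3 cells of each day, and in 2 or 3 pairs in the other groups. With a replicate block the counts of autophagy genes called were 4 in Grn cells of day 4, 1 in Npc1 cells of day 13, 7 for the day difference in Pik3c3 and 5 in Trem2 cells. Leaving out 1 library gave 1 to 5 in Grn cells of day 4 (1 without Rosa26 replicate 3, 5 without Grn replicate 5), 8 to 13 in Trem2 cells of day 4 and, at day 13, 7 to 9 in Atp6v1a, 0 to 1 in Npc1, 7 to 10 in Pik3c3, 11 to 17 in Grn and 9 to 12 in Trem2 cells. The sign turned for Snap29 in Grn cells of day 13 within Low-input libraries (-0.045) and for Tax1bp1 in Atp6v1a against Grn cells without the protocol term (-0.015). The cause was not tested. Genes with few counts, such as Atg9a and Optn, are limited by depth.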
